A study of Mus musculus with 32 samples.

Results

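The genes of mitosis and cytokinesis were followed in differentiating C2C12 cells, a mouse line of skeletal myoblasts that stops dividing and fuses into myotubes after a change from growth medium to differentiation medium. A list of 46 genes, sorted into 8 roles, was matched by current or former name to the probe sets of the array. Of these 46 genes, 39 had at least 1 probe set (53 probe sets in all, against 12422 probe sets and 8251 genes on the whole array), and Ccnb1, Bub1b, Cenpf, Cdc25b, Hmmr, Tpx2 and Espl1 were not matched. The genes were listed by function, with earlier results of these arrays known.

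RNA was measured on 32 Affymetrix arrays in 2 arms. The first arm held untreated control cells and TSA cells, which received trichostatin A, a drug that blocks the class of histone deacetylases that need zinc. Both were taken in growth medium, called 0 h here, and 4, 12, 24 and 48 h after they entered differentiation medium, each group on 2 arrays. The second arm held cells with the vector pHan and cells with pHan carrying Sir2, a deacetylase that needs NAD and is called Sirt1 in the mouse. They were taken 12 and 36 h into differentiation, each group on 3 arrays. The labels give no TSA dose, no time of its addition or removal, no promoter of the vector, and no statement on whether the Sir2 cells were 1 clone or a pool. Nor do they say whether replicates came from separate cultures, and the spread behind every p-value below may therefore be technical.

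In a dividing cell the kinase Cdk1, bound to cyclins A and B, drives entry into mitosis. Aurora and Polo-like kinases build the spindle, and the checkpoint proteins Bub1, Bub3, Mad2l1 and Ttk hold the cell until every kinetochore is attached. Cdc20 then turns on the anaphase-promoting complex, which destroys securin (Pttg1) and the cyclins, and anillin, Ect2, Prc1 and the central spindle kinesins divide the cytoplasm. Transcripts of most of these genes are known to peak in G2 and M phase. Myoblasts leave the cell cycle before they fuse, and an array of a whole culture cannot tell fewer cycling cells from less RNA per cell.

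Each array held values scaled to a common mean within its arm, so levels are not compared between arms, nor between probe sets. The TSA arm has intensities at or below 0 for 21.0% to 24.2% of the probe sets of an array, and the Sir2 arm has none. The Spearman correlation between arrays of a group ran from 0.911 (control cells at 48 h) to 0.966 where TSA was studied, and from 0.961 to 0.973 for the Sir2 arrays. All 6 markers of the myogenic line (Myod1, Myf5, Myog, Des, Cdh15 and Chrna1) had a mean above the filter on dim probe sets in both arms. Of markers of other cells, 1 of 6 leukocyte markers on the array (Cd14), 1 of 6 endothelial markers (Kdr, in the TSA arm alone), 2 of 4 adipocyte markers (Lep and Lpl) and 3 of 3 bone and cartilage markers (TSA arm alone) had a mean above it. So did smooth muscle markers, 3 of 4 in the TSA arm (Acta2, Tagln and Cnn1) and 2 of 4 in the Sir2 arm (Acta2 and Tagln). The leukocyte gene Ptprc and the endothelial gene Cdh5 were below it in both. Sirt1, which checks the Sir2 label, had 9.48 to 20.3 on vector arrays and 37.5 to 48.7 on Sir2 arrays at 12 h. At 36 h it had 19.6 to 39.4 and 35.8 to 80.5, so the ranges overlapped, and whether its probes match the introduced Sir2 is not stated.

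The promoters of the members are shown first, and whether they bear on the changes below was not tested. RefSeq promoter windows on GRCm38.p6 (250 bases before to 50 after the start) were matched for 32 of the 39 genes. Those windows were searched on both strands for CCAAT, the box bound by the factor NF-Y, for TTTGAA or TTCGAA, the core of the cell cycle homology region known from mitotic promoters, and for TTTGGCGC or TTTCGCGC, an E2F-type site. No word contains another on either strand, and TTCGAA reads the same on both. CCAAT was found for 25 of 32 genes (78.1%), against 41.1% of 27025 genes with a window and 42.5% of 6576 such genes on the array. TTTGAA or TTCGAA was found for 23 of 32 (71.9%), against 21.7% and 17.5%. Both were found for 21 of 32 (65.6%), against 8.61% and 7.22%. The E2F-type word was found for 1 gene, Cdk1 (3.13%, against 0.929% and 1.73%). A match describes letters in a window and not a bound site. Of the members with CCAAT and TTTGAA or TTCGAA within the 250 bases before the start, those of smallest adjusted p in control cells at 48 h in each of 6 roles are printed below, 5′ to 3′ on the gene's strand, with matches to any of the searched words on either strand in capitals (ATTGG is CCAAT and TTCAAA is TTTGAA on the other strand).
Cdk1 (chr10:69352913-69353162, minus strand): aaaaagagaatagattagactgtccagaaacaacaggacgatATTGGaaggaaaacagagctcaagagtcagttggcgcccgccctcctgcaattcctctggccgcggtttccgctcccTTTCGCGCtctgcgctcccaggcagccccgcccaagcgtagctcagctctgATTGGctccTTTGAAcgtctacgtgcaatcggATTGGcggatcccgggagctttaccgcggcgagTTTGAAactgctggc
Mki67 (chr7:135716380-135716629, minus strand): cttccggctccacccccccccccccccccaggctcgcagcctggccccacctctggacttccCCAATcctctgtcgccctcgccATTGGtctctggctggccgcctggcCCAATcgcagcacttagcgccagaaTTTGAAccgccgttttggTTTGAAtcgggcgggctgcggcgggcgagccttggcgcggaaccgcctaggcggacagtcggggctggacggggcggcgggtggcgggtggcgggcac
Prc1 (chr7:80294226-80294475, plus strand): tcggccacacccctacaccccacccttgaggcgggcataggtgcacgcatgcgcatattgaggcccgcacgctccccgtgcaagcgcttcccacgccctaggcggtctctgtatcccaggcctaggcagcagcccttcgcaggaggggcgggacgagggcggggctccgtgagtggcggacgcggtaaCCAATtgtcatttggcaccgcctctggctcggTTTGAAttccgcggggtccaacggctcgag
Cdc20 (chr4:118437344-118437593, minus strand): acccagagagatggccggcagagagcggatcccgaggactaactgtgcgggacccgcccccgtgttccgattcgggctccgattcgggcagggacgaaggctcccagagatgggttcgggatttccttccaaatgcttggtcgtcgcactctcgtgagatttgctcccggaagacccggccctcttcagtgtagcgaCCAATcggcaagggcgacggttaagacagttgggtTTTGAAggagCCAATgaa
Kif22 (chr7:127042421-127042670, minus strand): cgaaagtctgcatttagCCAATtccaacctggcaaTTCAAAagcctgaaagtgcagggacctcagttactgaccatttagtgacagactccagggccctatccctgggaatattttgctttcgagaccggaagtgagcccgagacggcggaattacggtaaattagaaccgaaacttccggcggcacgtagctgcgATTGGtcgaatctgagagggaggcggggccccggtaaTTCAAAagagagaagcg
Bub3 (chr7:131560120-131560369, plus strand): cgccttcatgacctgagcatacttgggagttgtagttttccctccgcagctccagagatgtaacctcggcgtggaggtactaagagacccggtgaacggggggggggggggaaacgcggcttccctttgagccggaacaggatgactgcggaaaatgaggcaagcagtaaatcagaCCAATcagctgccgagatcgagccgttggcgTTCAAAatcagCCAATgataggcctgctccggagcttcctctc
In Cdk1 a CCAAT match begins 80 bases before the start and TTTGAA follows at 71, and a second pair begins at 48 and 15. Prc1 has CCAAT at 62 and TTTGAA at 30, and Cdc20 has them at 53 and 18. Mki67 has 3 CCAAT and 2 TTTGAA matches, and Bub3, whose transcript moved less than that of most members, has 2 and 1.

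Values are the deposited intensities, and changes are on the log2(value + pseudocount) scale with values below 0 set to 0. The pseudocount was 137.7 for TSA and control arrays and 8.82 for Sir2 and vector arrays, so changes of dim genes are understated and depend on it. Each was tested with limma over the 7453 probe sets of an arm whose mean passed the filter, with Benjamini-Hochberg adjustment over all of them, and a gene passed at an adjusted p under 0.05. A gene is represented by its brightest probe set that passed the filter, which left 38 genes in each arm. Cenpe, a kinetochore motor, had 2 probe sets, both under the filter, with values from -254.2 to 143.3 beside TSA and from 0.738 to 24.4 beside Sir2, and was not tested.

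Control cells kept their mitotic transcripts for the first 12 h of differentiation and had lost nearly all of them by 48 h. As a percentage of the control mean at 0 h, the median of the 38 genes was 84.8% at 4 h, 100.2% at 12 h, 71.9% at 24 h and 9.64% at 48 h. The level was highest at 0 h for 18 genes, at 4 h for 2 genes, at 12 h for 17 genes and at 24 h for 1 gene, and it was lowest at 48 h for 38 of 38 genes.

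At 4 h 1 gene was lower than at 0 h, against 0.966% of all probe sets. This was Nusap1, a microtubule-binding spindle protein, with 2422 and 2841 at 0 h and 1322 and 1339 at 4 h (log2 change -0.91 ± 0.16, SE, adjusted p = 0.0112). The call was lost without any 1 of these 4 arrays, and the dimmer probe set of Nusap1 did not pass. A dimmer probe set of Cdc25c was also lower at 4 h (-0.80 ± 0.18, adjusted p = 0.0474), while its brightest did not pass. At 12 h against 0 h 0 of 38 genes passed in limma (5.23% of all probe sets passed in either direction), and at an unadjusted p under 0.05 there were 5, 2 lower and 3 higher, against 20% of all probe sets at that unadjusted p. The members' median change was 0.00 and that of all probe sets 0.01. Cdk1 had 6420 and 5090 at 0 h, 5232 and 5230 at 4 h, and 8383 and 8898 at 12 h, so both 12 h arrays lay above the other 4. Its rise from 4 to 12 h (0.71 ± 0.17, adjusted p = 0.0453) was the only change of 38 to pass, against 2.91% of all probe sets in either direction and 1.25% higher, and was lost without any 1 of the 4 arrays.

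Between 12 and 24 h 14 genes fell and 0 rose, against 6.45% of all probe sets lower and 7.61% higher, with a median change of -0.52 (all probe sets -0.01). Cdk1 went to 4467 and 4011 (-1.01 ± 0.17, adjusted p = 0.00183). Cdc20, the activator of the anaphase-promoting complex, had 9800 and 11100 at 12 h and 5238 and 5876 at 24 h (-0.89 ± 0.16, adjusted p = 0.00296). The checkpoint protein gene Mad2l1 went from 3869 and 3554 to 2434 and 2196 (-0.65 ± 0.12, adjusted p = 0.00367). Aurka, the Aurora kinase of spindle poles, went from 2538 and 2789 to 1511 and 1692 (-0.69 ± 0.13, adjusted p = 0.00441). In each of these genes the arrays of the 2 times did not overlap. Ccnb2, a B-type cyclin, had 7618 and 8979 at 12 h and 8504 and 8704 at 24 h, which overlap. Against 0 h, 9 genes were lower at 24 h and 0 higher (6.74% and 6.13% of all probe sets), with a median of -0.45 (all -0.01): Anln, Cdc20, Incenp, Kif2c, Kif4, Mad2l1, Mki67, Nek2 and Smc2. Of the 8 dimmer probe sets tested, 0 passed together with their brightest in either comparison. Those of Incenp and Mki67 did not pass in either. Against 0 h 3 passed where the brightest did not, and against 12 h 1 did. The count of 14 was 4 without control 12 h replicate 1 or control 24 h replicate 3, 5 without 24 h replicate 2 and 6 without 12 h replicate 2, and the count of 9 was 5 without 24 h replicate 3 and 4 without 0 h replicate 2. With only the 4 arrays compared in the fit, which leaves far fewer residual degrees of freedom, 0 and 2 passed.

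At 48 h 37 of 38 genes were lower than at 0 h and 0 higher, against 19.3% of all probe sets lower, and the members' median change was -2.68 (all probe sets 0.01). Both 48 h arrays lay under both 0 h arrays for 38 of 38 genes, as they did for 33.4% of all probe sets. Every tested gene of 7 roles passed: 6 of entry into mitosis (median -2.31), 6 mitotic kinases and chromosomal passengers (-2.46), 4 of the spindle checkpoint (-2.69), 3 of anaphase and exit (-2.37), 7 spindle motors and microtubule proteins (-2.68), 6 of cytokinesis (-3.36) and 4 of chromosome structure (-3.32). Of the centromere and kinetochore role 1 of 2 passed.

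Cdk1 had 37.8 and 120 left at 48 h, 1.37% ± 1.01 (SD) of the 0 h mean. Anln, the anillin that scaffolds the contractile ring, had 5265 and 6324 at 0 h and 274 and 251 at 48 h (-3.88 ± 0.14, adjusted p = 1.10e-09), which is 4.54% ± 0.278. Mki67, whose protein coats mitotic chromosomes and is a usual marker of dividing cells, had 2687 and 3057 against 152 and 139 (-3.41 ± 0.14, adjusted p = 3.12e-09). In these genes both 48 h arrays lay far under every array of 0 to 24 h. Mad2l1 had 3853 and 4112 against 331 and 393 (-3.05 ± 0.12, adjusted p = 2.03e-09). Smc2, a condensin subunit, had 2409 and 2791 against 93.3 and 43.1. Aurkb, the kinase of the chromosomal passenger complex, and Racgap1, a partner of the central spindle, were listed at or below 0 on both 48 h arrays, so no fold is given for them.

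By their brightest probe sets, the genes that kept most of their level at 48 h were Zwint (65.0% ± 3.0), Bub3 (64.3% ± 10.8) and Cenpa (56.8% ± 9.03). The dimmer probe set of Zwint was at 48.2% ± 6.48. That of Incenp, which did not pass, was at 78.3% ± 34.7. That of Nusap1 did not pass either, with 213 and 424 at 0 h and 141 and -423 at 48 h. Zwint links the kinetochore to its outer proteins and had 4611 and 4652 at 0 h and 2914 and 3111 at 48 h. Bub3, a checkpoint protein that also has roles outside mitosis, had 8031 and 8157 against 4592 and 5825. Both passed. Cenpa, the centromeric histone H3 variant, had 1091 and 1266 against 594.6 and 745 and did not pass (-0.71 ± 0.28, adjusted p = 0.0713). From 24 to 48 h 35 genes passed, all lower (18.9% of all probe sets passed in either direction and 11% lower, median -2.24 against -0.01), and Bub3 (-0.26 ± 0.13, adjusted p = 0.192), Cenpa (-0.61 ± 0.28, 0.162) and Ube2c, the ubiquitin-conjugating enzyme of the anaphase-promoting complex (-0.69 ± 0.26, 0.0897), did not pass. That count was 18 with only those 4 arrays in the fit. Incenp, Mki67 and Nusap1 did not pass on their dimmer probe sets. Plk1, the Polo-like kinase, depended on the probe set: its brightest had 3147 and 2682 at 0 h and 1391 and 1430 at 48 h, while another went from 2532 and 2380 to 59.0 and 349.

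**Figure D1:**
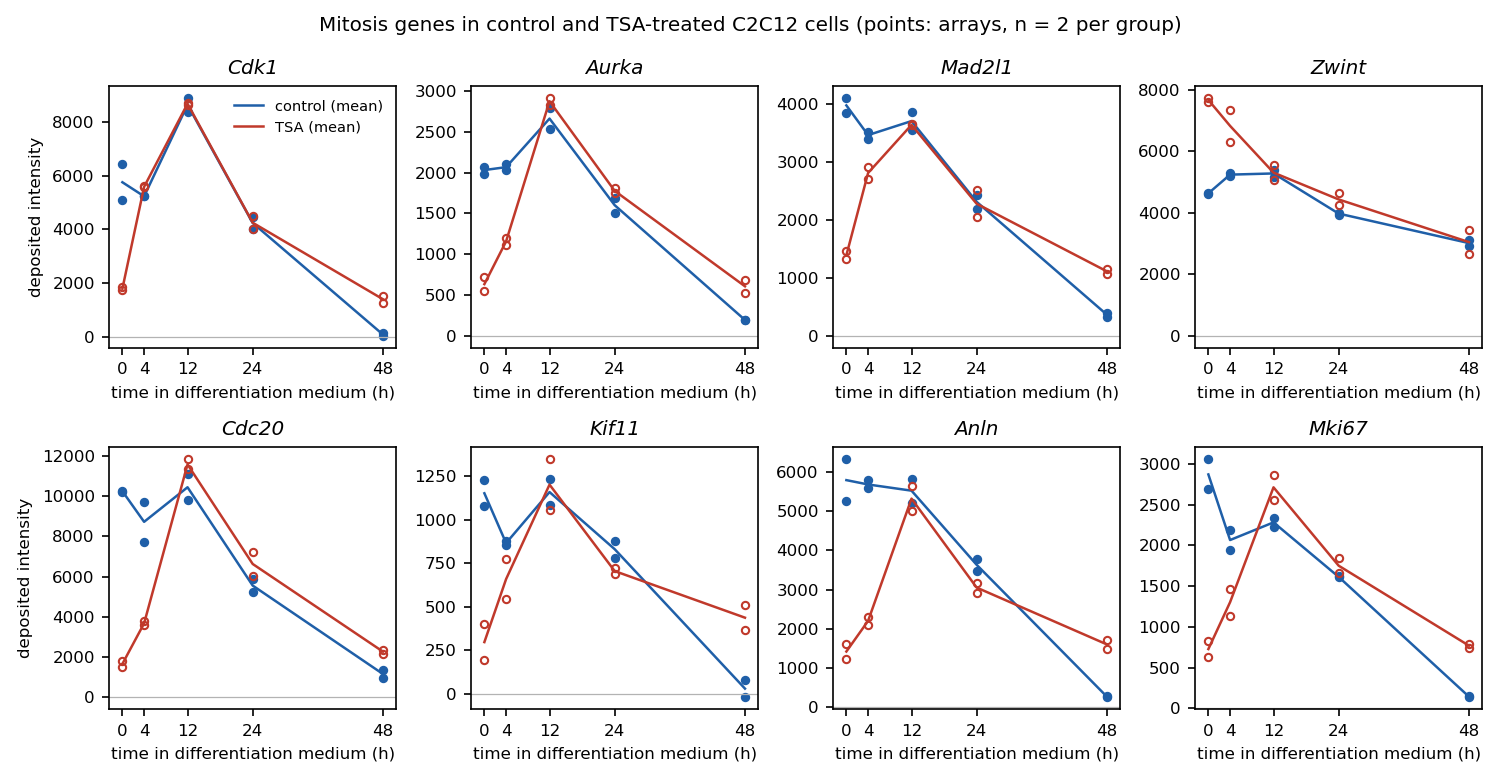
Deposited intensity (y axis) against hours in differentiation medium (x axis; 0 h is growth medium) for 1 gene of each role, with both arrays of a group as points (filled: control, open: TSA) and lines through the means. Cdk1 stood at 5090 and 6420 in control cells at 0 h against 1731 and 1846 with TSA, met at 12 h, and at 48 h was higher with TSA, while Zwint was higher with TSA at 0 h.

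In growth medium TSA-treated cells had lower levels of 37 of the 38 genes than control cells, and 1 gene, Zwint, was higher. Of all probe sets 10% were lower and 7.9% higher. The members' median change was -1.60 (all probe sets 0.00), their median level was 28.8% of control, and the 2 groups did not overlap for any of the 38 genes, nor for 63.7% of all probe sets. The role medians lay between -1.24 (anaphase and exit) and -1.86 (cytokinesis), apart from centromere and kinetochore with 1 gene in each direction.

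Cdc20 had 1501 and 1810 with TSA and 10269 and 10236 in control (-2.54 ± 0.16, adjusted p = 1.87e-06). Stmn1, stathmin, which destabilizes microtubules, had 3535 and 3075 against 12920 and 12055 (-1.88 ± 0.12, adjusted p = 1.95e-06). Ccnb2 had 1506 and 2101 against 8761 and 7890 (-2.14 ± 0.15, adjusted p = 2.46e-06). In each of them both TSA arrays lay far under both control arrays. Anln had 1222 and 1613 with TSA (24.5% ± 4.77 of control, -1.94 ± 0.14, adjusted p = 2.96e-06). Kif23, a motor of the central spindle, had 487 and 228 against 2667 and 2718, which is 13.3% ± 6.79.

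Among the genes that fell, Bub3 moved least, from 8031 and 8157 to 5237 and 5678 (67.4% ± 3.85), and its call was lost without 3 of the 4 arrays. Aurkb had -839 and 144 with TSA against 1404 and 1238, so 1 TSA array was under 0. Zwint went the other way, with 7600 and 7735 against 4611 and 4652 (0.71 ± 0.12), or 166% ± 2.07 of control, and its other probe set also passed, with 5689 and 6928 against 4106 and 3929. Cenpa, of the same role, had 489 and 177 against 1091 and 1266. Of the 8 dimmer probe sets tested, 6 passed together with their brightest, and those of Incenp and Nusap1 did not. In 0 of the 8 was the change of opposite sign. With 1 array left out, 33 to 37 genes passed.

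After the change to differentiation medium the TSA-treated cells regained their mitotic transcripts over the hours in which control cells still held theirs. The comparisons within TSA cells share the 0 h TSA arrays with the comparison above. At 4 h the median level was 49.5% of control at 0 h, at 12 h 109%, at 24 h 64.9% and at 48 h 29.0%. The level was highest at 12 h for 36 of 38 genes, the exceptions being Zwint (0 h) and Ccnb2 (24 h).

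From 0 to 4 h 18 genes rose in TSA cells and 0 fell (3.81% and 2.19% of all probe sets), with a median of 0.70 (all probe sets 0.00). Cdk1 had 1731 and 1846 at 0 h and 5600 and 5567 at 4 h (1.57 ± 0.17, adjusted p = 2.20e-04), which is above both control arrays of 4 h (5232 and 5230). Mad2l1 went from 1322 and 1460 to 2706 and 2922 (0.95 ± 0.12, adjusted p = 7.62e-04), and Cdc20 to 3779 and 3570 (1.09 ± 0.16, adjusted p = 0.00174). All 4 tested genes of chromosome structure (Mki67, Top2a, Smc2 and Smc4) were among the 18, and 0 of 2 of centromere and kinetochore. Of the 18, Incenp, Mki67 and Plk1 had dimmer probe sets that did not pass. Among the 8 dimmer probe sets tested, 1 passed together with its brightest. The count was 4 without TSA 0 h replicate 1 or TSA 4 h replicate 2, and 0 with only the 4 arrays in the fit.

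From 0 to 12 h 37 genes rose and Zwint fell (8.87% of all probe sets higher and 7.82% lower, median 1.66 against -0.02). Cdc20 reached 11334 and 11837 (2.71 ± 0.16, adjusted p = 8.23e-07), Aurka went from 545 and 719 to 2917 and 2835 (1.98 ± 0.13, adjusted p = 2.01e-06), and Ccnb2 reached 8023 and 9048 (2.17 ± 0.15, adjusted p = 3.22e-06). The 12 h and 0 h arrays of TSA cells did not overlap for any of the 38 genes, nor for 63% of all probe sets. Zwint came down to 5068 and 5541 (-0.52 ± 0.12). Its other probe set went from 5689 and 6928 to 4481 and 4741 and did not pass. Nor did dimmer probe sets of Incenp and Nusap1. At 24 h 34 genes were still above 0 h and Zwint was below (8.95% of all probe sets higher and 7.65% lower, median 1.06 against 0.02), while Racgap1, Bub3 and Aurkb did not pass. That count of 35 was 23 without TSA 0 h replicate 1 and 9 with only the 4 arrays in the fit. Incenp, Mki67 and Nusap1 did not pass at 24 h on their dimmer probe sets. At 48 h few genes of TSA cells passed against their own 0 h level: 2 genes were higher (Ccnb2 and Smc4) and 3 lower (Zwint, Cks1b and Incenp), against 12.1% and 14.2% of all probe sets, with a median of 0.14. Without TSA 0 h replicate 2 there were 3 in all, and with only the 4 arrays 1. The dimmer probe set of Incenp did not pass at 48 h.

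**Figure D2:**
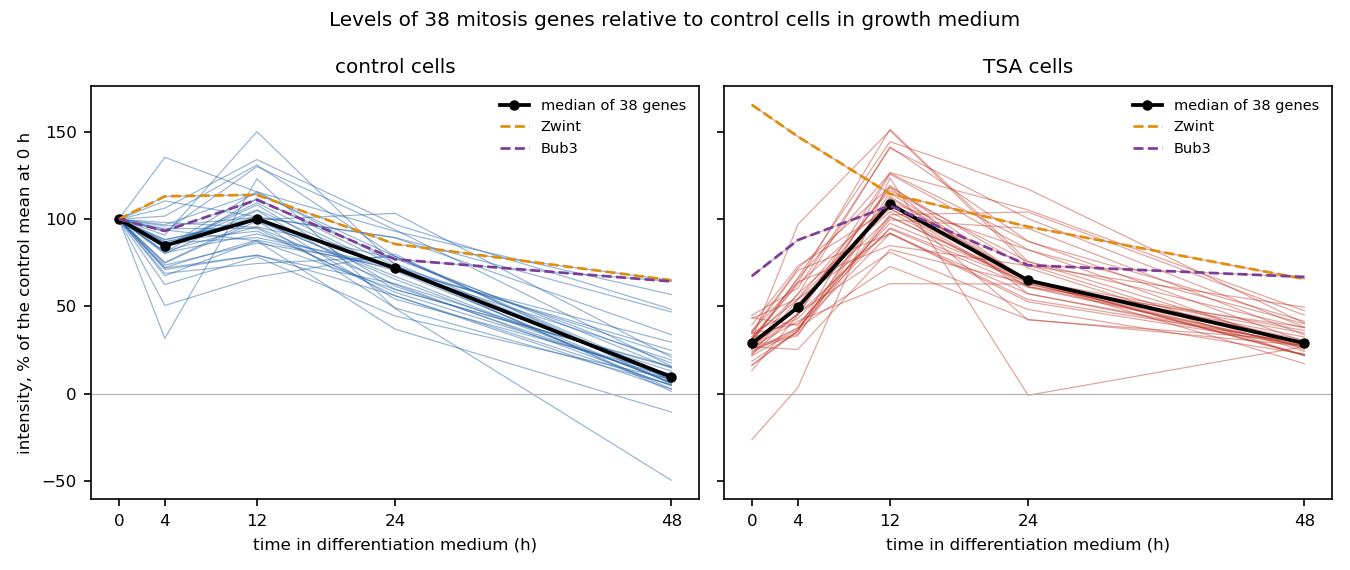
Mean intensity as a percentage of the control mean at 0 h (y axis) against hours in differentiation medium (x axis) for 38 genes, each a thin line, in control (left) and TSA-treated cells (right), with the median in black and Zwint and Bub3 dashed. The median went 100, 84.8, 100.2, 71.9 and 9.64 in control cells and 28.8, 49.5, 109, 64.9 and 29.0 with TSA; values under 0 are of Aurkb and Racgap1.

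Set against control cells at the same time, TSA-treated cells had 21 genes lower and 0 higher at 4 h (5.74% and 5.61% of all probe sets), with a median of -0.67 (all probe sets -0.04). Anln had 2100 and 2299 with TSA against 5786 and 5581 (-1.32 ± 0.14, adjusted p = 9.73e-05). Ccnb2 had 3076 and 3062 against 6891 and 7785 (-1.22 ± 0.15, adjusted p = 2.85e-04). The centrosomal kinase gene Nek2 had 878 and 916 against 1843 and 1765 (-0.91 ± 0.12, adjusted p = 3.34e-04), and Cdc20 changed by -1.21 ± 0.16 (adjusted p = 4.26e-04). In these genes the TSA arrays all lay under the control arrays, as they did not for Cdk1, which had a higher value on both TSA arrays and did not pass. Zwint had 6314 and 7335 against 5282 and 5195 and did not pass either. Mki67 passed on its brightest probe set and not on its dimmer one. The count was 11 without TSA 4 h replicate 1, 13 without control 4 h replicate 1, and 1 with only the 4 arrays in the fit.

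At 12 h 0 of 38 genes passed between TSA and control in limma (4.08% of all probe sets passed, 1.52% lower and 2.56% higher), and 2, both higher, had an unadjusted p under 0.05, against 16.7% of all probe sets. Changes ran from -0.25 (Smc4) to 0.37 (Ect2), with a median of 0.11 (all probe sets -0.02). Cdk1 had 8715 and 8645 with TSA and 8383 and 8898 in control, so the arrays overlapped. The 95% interval of the change had a median half-width of 0.36 and lay within -1 and 1 for 35 of 38 genes, so smaller differences were not excluded. At 24 h 1 gene passed, Nusap1, which was lower, against 5.94% of all probe sets in either direction, 3.27% lower and 2.67% higher. It had 1105 and 1136 with TSA and 2092 and 2116 in control (-0.83 ± 0.16, adjusted p = 0.00746), and the median of the members was 0.01 (all 0.00). The call was lost without control 24 h replicate 3, without TSA 24 h replicate 2, with only the 4 arrays in the fit, and with the mean of both its probe sets. Aurkb at 24 h had 107 and -131 with TSA against 906 and 386 and did not pass (adjusted p = 0.0692).

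At 48 h the order was turned around: 27 genes were higher with TSA than in control cells and 0 lower, against 10.5% of all probe sets higher and 9.1% lower. The members' median change was 1.09 (all probe sets -0.03), and their median level relative to control at 0 h was 29.0% with TSA and 9.64% without. Relative to each treatment's own level at 12 h, the medians were 29.2% and 10.9%. All 7 spindle motors and microtubule proteins and all 4 genes of chromosome structure passed, with 5 of 6 of cytokinesis, 3 of 4 of the checkpoint, 4 of 6 of mitotic entry, 2 of 3 of anaphase and exit, 2 of 6 mitotic kinases and passengers, and 0 of 2 of centromere and kinetochore.

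Cdk1 had 1271 and 1521 with TSA against 37.8 and 120 (2.85 ± 0.17, adjusted p = 5.43e-07). Anln had 1477 and 1720 against 274 and 251 (2.11 ± 0.14, adjusted p = 1.60e-06), and Smc2 had 673 and 742 against 93.3 and 43.1 (2.05 ± 0.17, adjusted p = 5.20e-06). Mki67 had 794 and 748 against 152 and 139 (1.68 ± 0.14, adjusted p = 7.69e-06). In these genes both TSA arrays were well above both control arrays, and well under the 12 h arrays of either treatment. The kinesin Kif11, which separates the spindle poles, had 368 and 508 against -18.4 and 80.1, so 1 control array was under 0.

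The 11 genes that did not pass at 48 h held different patterns. Zwint (3425 and 2663 with TSA, 2914 and 3111 in control, adjusted p = 0.987), Bub3 (5312 and 5523, against 4592 and 5825, 0.775), Cenpa (612 and 508, against 594.6 and 745, 0.661) and Ube2c (261 and 199, against 341 and 198, 0.781) overlapped between treatments. Plk1 had 975 and 1380 against 1391 and 1430 on its brightest probe set, and 677 and 762 against 59.0 and 349 on another, which passed. Cks1b (0.48 ± 0.16, adjusted p = 0.0502) and the cyclin Ccna2 (0.95 ± 0.33, 0.0625) lay just past the threshold. Kif23, Aurkb, Incenp and Nek2 also did not pass. For Mki67, Nusap1 and Cdc25c a dimmer second probe set did not pass. That of Mki67 was lower with TSA on both arrays (302 and 233, against 348 and 587). Of the 8 dimmer probe sets tested, 5 had a change of opposite sign to the brightest, and 1 passed together with it. The second probe set of Zwint did not overlap (2590 and 2186 with TSA, against 1754 and 2122). Pttg1 lost its call without any 1 of the 4 arrays, and Racgap1, Cdc25c and Kif22 without 3 of the 4. With 1 array left out 21 to 26 genes passed. When the fit held just the 4 arrays compared, 0 passed.

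An F test over the 5 times asked whether the TSA effect differed between them. It passed for 36 of 38 genes, against 22.2% of all probe sets, and not for Bub3 (adjusted p = 0.122) or Ube2c (adjusted p = 0.0862). Among the brightest probe sets the smallest adjusted p was that of Anln (9.09e-07), whose changes at 0, 4, 12, 24 and 48 h were -1.94, -1.32, -0.05, -0.24 and 2.11. The dimmer probe set of Kif20a had a smaller one (9.22e-08). Zwint passed on its brightest probe set (adjusted p = 0.0388), with a change that began above 0 and ended at 0.00. Its other probe set did not pass (adjusted p = 0.199). Nor did the dimmer probe sets of Incenp (adjusted p = 0.318) and Nusap1 (adjusted p = 0.788).

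**Figure D3:**
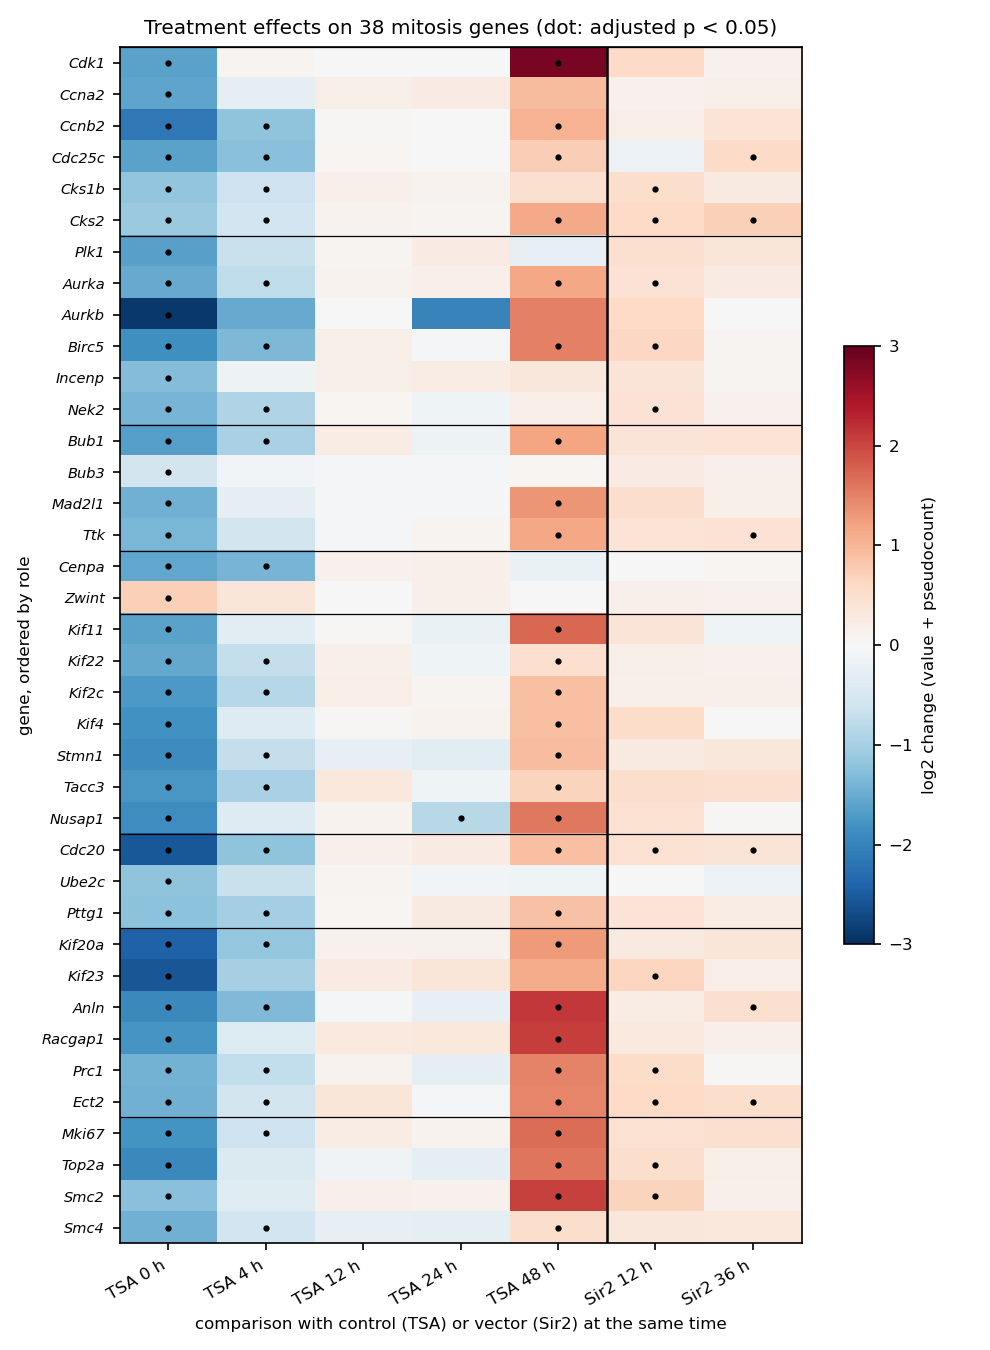
Log2 change (colour, red higher and blue lower; the scale ends at -3 and 3) of 38 genes, in rows grouped by role, with TSA against control at 5 times and Sir2 against vector at 2 times, in columns; a dot marks an adjusted p under 0.05. With TSA the column of 0 h has 37 lower and 1 higher genes and that of 48 h 27 higher genes, and with Sir2 11 and 6 genes are higher.

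A wider list of 89 other mitosis genes, with 53 on the array and 50 tested was set beside the members. It holds, among others, subunits of the anaphase-promoting complex and of cohesin, which are needed outside mitosis as well. At 48 h in control cells 36 of 50 fell (19.3% of all probe sets) and 1, Ndel1, a dynein regulator, rose (median -1.01), led by Dlgap5, a spindle protein (-2.86 ± 0.12, adjusted p = 3.52e-09). With TSA at 0 h 27 of 50 were lower, against 10% of all probe sets, and 2 higher, against 7.9%. At 4 h 7 were lower (5.74%) and 2 higher (5.61%), at 12 h 0 lower (1.52%) and 2 higher (2.56%), and at 24 h 0 lower (3.27%) and 1 higher (2.67%). At 48 h 13 were higher (10.5%) and 1 lower (9.1%). As shares of 50, the counts higher at 0 to 24 h lie near or under those of all probe sets. The higher genes at 0, 4 and 12 h, named after their values were seen, were the same 2: Arpp19, whose protein inhibits the phosphatase that opposes Cdk1 (0.60 ± 0.12, 0.69 ± 0.12 and 0.69 ± 0.12), and Anapc13, a subunit of the anaphase-promoting complex (0.77 ± 0.16, 1.03 ± 0.16 and 0.77 ± 0.16). Dlgap5 followed the members, with -1.86 ± 0.12 at 0 h and 1.10 ± 0.12 at 48 h.

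In the Sir2 arm the vector cells lost mitotic transcripts between 12 and 36 h. Of 38 genes 36 were lower at 36 h and 0 higher, against 19.7% of all probe sets lower, with a median change of -1.22 (all probe sets -0.02) and a median level of 41.0% of that at 12 h. Dimmer probe sets of Incenp, Mki67 and Nusap1 did not pass. That of Mki67 went up, from 43.5, 34.1 and 59.7 at 12 h to 67.3, 61.2 and 59.9. Cdc20 had 1184, 1049 and 1160 at 12 h and 305, 324 and 270 at 36 h (-1.89 ± 0.10, adjusted p = 9.37e-08). Aurka had 267, 278 and 258 against 69.5, 65.5 and 70.8 (-1.84 ± 0.10, adjusted p = 1.04e-07). Anln had 806, 896 and 844 against 253, 259.9 and 257 (-1.69 ± 0.11, adjusted p = 4.03e-07). The 3 arrays of 12 h all lay above the 3 of 36 h in 37 of 38 genes, and in 26.6% of all probe sets. Zwint (-0.44 ± 0.16, adjusted p = 0.055) and Ube2c (-0.13 ± 0.27, adjusted p = 0.737) did not pass, and Ect2, which activates RhoA at the cleavage site, fell furthest, to 19.4% ± 2.66.

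In cells with Sir2 36 genes were lower at 36 h than at 12 h and 0 higher (16.9% of all probe sets lower, median -1.47 against -0.05). Cenpa (-0.47 ± 0.17, adjusted p = 0.0626) and Ube2c (-0.31 ± 0.27, adjusted p = 0.432) did not pass. Nor did dimmer probe sets of Incenp, Mki67, Nusap1 and Zwint, and that of Mki67 had a higher mean at 36 h. Aurka had 386, 376 and 341 at 12 h and 79.9, 92.8 and 78.6 at 36 h (-2.02 ± 0.10, adjusted p = 4.43e-08), and Top2a, the topoisomerase that untangles chromosomes, had 531, 598 and 534 against 158, 144 and 150 (-1.82 ± 0.10, adjusted p = 8.77e-08).

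At 12 h Sir2 cells had higher levels of 11 genes than vector cells and lower levels of none, against 5.55% of all probe sets in either direction and 2.78% higher. The median change was 0.42 (all probe sets 0.02), 36 of 38 changes were above 0, and the median level was 134% of vector. Top2a had 531, 598 and 534 against 390, 400 and 354 (0.53 ± 0.10, adjusted p = 0.00858). Cks2, a small subunit of Cdk1 complexes, had 1057, 1117 and 1121 against 782, 699 and 690.03 (0.60 ± 0.12, adjusted p = 0.0113). Kif23 had 269, 367 and 314 against 205, 202 and 182 (0.66 ± 0.13, adjusted p = 0.0144). Prc1, which bundles microtubules of the central spindle, had 546, 636 and 648 against 415, 454 and 377 (0.54 ± 0.11, adjusted p = 0.0152). In each of them all 3 Sir2 arrays lay above all 3 vector arrays, which held for 28 of 38 genes and for 12.4% of all probe sets. The others that passed were Cdc20, Birc5, Aurka, Ect2, Nek2, Smc2 and Cks1b, with changes from 0.43 to 0.67. Cdk1 had 1051, 903 and 992 against 703, 632 and 647, with no overlap, and did not pass.

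These calls rest on small differences. The count of 11 was 1 without vector 12 h replicate 3, 3 without Sir2 replicate 2, 5 without Sir2 replicate 1 or 3 and 7 without vector replicate 1, and 3 after median centring. It was 2 with only the 6 arrays in the fit, 4 with no filter on dim probe sets and 18 with a stricter one. Of the 11, Top2a alone passed whichever of the 6 arrays was left out (adjusted p from 0.0175 to 0.0458), and Nek2 lost its call without any 1 of them.

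At 36 h 6 genes were higher with Sir2 and 0 lower (6.04% of all probe sets higher), with a median of 0.17 (all probe sets -0.02). Cks2 had 462, 396 and 481 against 235, 277 and 295 (0.71 ± 0.12, adjusted p = 0.00253) and passed whichever array was left out. Anln had 357, 369 and 355 against 253, 259.9 and 257 (0.47 ± 0.11, adjusted p = 0.0192). Ttk, the checkpoint kinase Mps1, had 66.3, 73.3 and 81.7 against 58.7, 48.7 and 49.0 (0.44 ± 0.11, adjusted p = 0.028), and Cdc20 changed by 0.39 ± 0.10 (adjusted p = 0.0328). In these genes the Sir2 arrays lay above the vector arrays without overlap, which held for 16 of 38 genes and for 15.2% of all probe sets. Ect2 and Cdc25c, a phosphatase that activates Cdk1, also passed. The count of 6 was 1 without Sir2 36 h replicate 2 or vector 36 h replicate 3, 2 without Sir2 replicate 1 or 3, 3 without vector replicate 2, 2 with no filter and 3 with only the 6 arrays in the fit. Cdc20, Cks2 and Ect2 passed at both times. The difference of the Sir2 effect between 36 and 12 h passed for 0 of 38 genes in limma (1.76% of all probe sets), with 7 at an unadjusted p under 0.05 (6 of them lower, against 14.8% of all probe sets in either direction), so the larger count at 12 h is not shown to be a larger effect. Of the other mitosis genes 50 were tested in this arm, with Pds5b and Kifc1 in place of Ndc80 and Cit. At 12 h 4 of them were higher with Sir2 (Ncaph, Wee1, Rcc1 and Gtse1), and 0 lower. The share of all probe sets higher at 12 h is given above. A dimmer probe set of Mybl2 was also higher (1.29 ± 0.19, adjusted p = 0.00236), while its brightest did not pass. At 36 h 0 of these 50 passed in limma, with 7 at an unadjusted p under 0.05, against 23.3% of all probe sets.

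**Figure D4:**
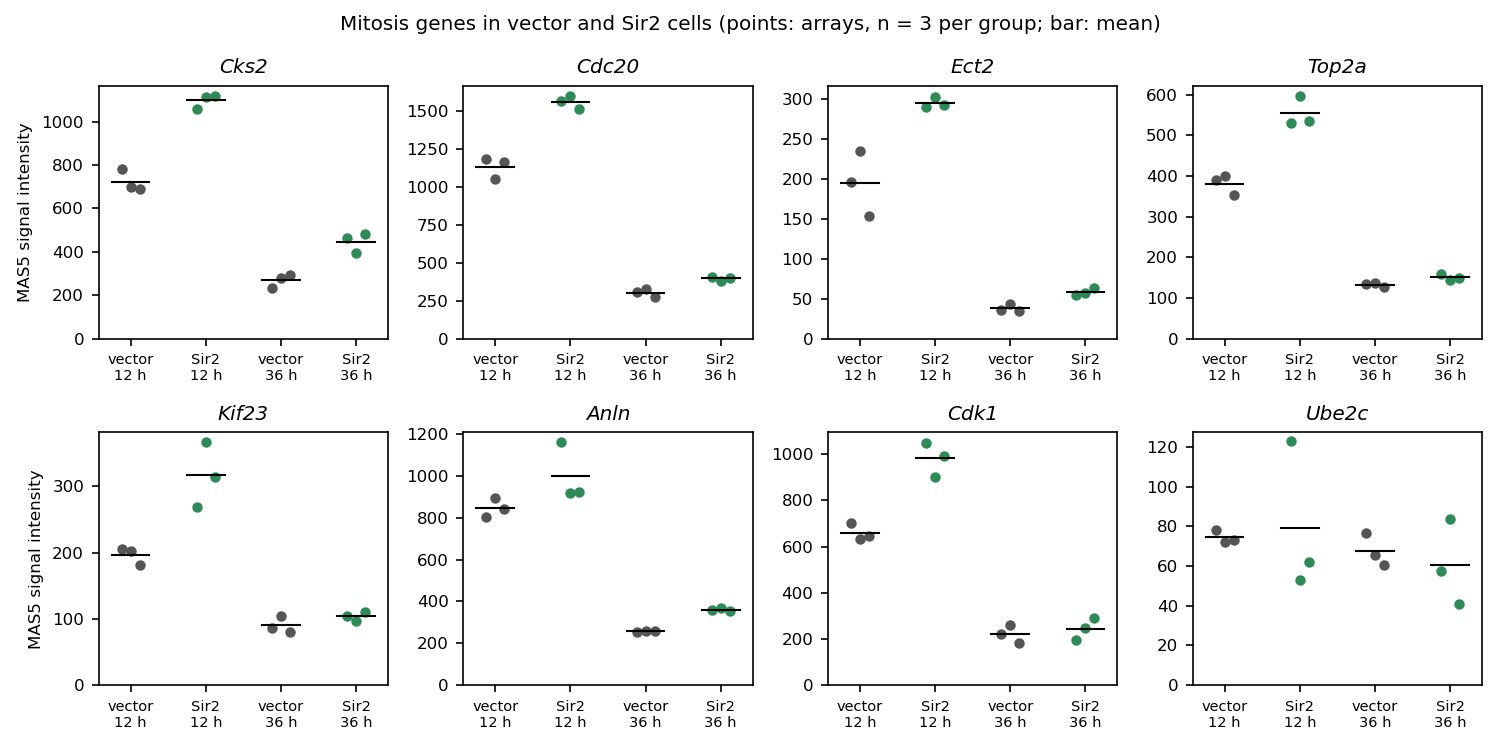
MAS5 signal intensity (y axis, from 0) of 8 genes in vector and Sir2 cells at 12 and 36 h (x axis), with the 3 arrays of a group as points and their mean as a bar. Cks2 at 36 h had 396 to 481 with Sir2 against 235 to 295, and Ube2c overlapped between all groups.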

How the data were processed

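RNA of C2C12 cells was measured on 32 Affymetrix arrays, 20 for TSA and control and 12 for Sir2 and vector, with groups taken from the labels. The deposited values are intensities on a linear scale, 1 per probe set and array. Per the submitters' processing notes, those of the Sir2 arm are MAS5 signal intensities. For the TSA arm the tool is not stated in the labels or notes. Of 12488 probe sets 66 controls were left out. A symbol came from the platform annotation for 10833, 396 had several and 1193 none.

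Probe sets whose mean was at or above the 40th percentile of an arm (144.9 and 31.1) were tested, 7453 in each arm. The pseudocount was planned as the 20th percentile of an arm, which is 8.82 in the Sir2 arm and below 0 (-13.7) in the TSA arm, where the 40th percentile, 137.7, was used. A linear model with 1 mean per group was fitted to each arm separately (limma 3.58.1 in R 4.3.3, lmFit, then eBayes), leaving 10 and 8 residual degrees of freedom, with Benjamini-Hochberg adjustment. The ± of a log2 change is its standard error, and that of a percentage the standard deviation. Where all arrays of a group are at 0 or less, the floor removes their spread and the p can be too small.

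The members, roles and lists were chosen with earlier results of these data known. Every member could be named; values by array were given per comparison for up to 4 members of smallest adjusted p, those against the majority direction and those that did not pass where most did, and up to 4 other mitosis genes of smallest p were named. Probe set suffixes (s, f, r, i) mark probe sets that may match several transcripts or were built under relaxed rules, among them those used for Zwint, Kif20a, Pttg1, Cdc25c, Kif22, Ube2c and Nusap1. The fit was tested on simulated data of 7453 probe sets, of which only a part was given a change. It recovered 49.3% of probe sets given a log2 change of 1 for TSA against control at 0 h. For Sir2 against vector at 36 h it recovered 26.9% of those given 0.5. Promoters and coordinates are from RefSeq on GRCm38.p6, figures from matplotlib 3.10.9. Alternatives were other pseudocounts, quantile normalization, median centring, other filters, trended variance, a replicate block, the title suffix b as a covariate, fits of only the groups compared, the mean of a gene's probe sets, and leaving out each array.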

Additional observations from a re-analysis of the deposited data

Results flagged for a closer look

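The effect of TSA differed between times for 36 of the 38 member genes on their brightest probe sets, by an F test of the differences in limma. The dimmer probe sets of Incenp (adjusted p = 0.318) and Nusap1 (adjusted p = 0.788) did not pass it. By this test the adjusted p was 9.09e-07 for Anln, 2.34e-06 for Cdk1, 3.14e-06 for Mki67 and 4.57e-06 for Cdc20. These were the 4 smallest among the brightest probe sets of the members. On the brightest probe set of each, both TSA arrays lay under both control arrays at 0 h and above them at 48 h. The dimmer probe set of Mki67 was lower with TSA at both times. Zwint had an adjusted p of 0.0388 on its brightest probe set. There it was higher with TSA on both arrays at 0 h and overlapped with control at 48 h. Its other probe set did not pass the F test (adjusted p = 0.199). At 48 h that probe set did not overlap, with 2590 and 2186 with TSA against 1754 and 2122. No group held 4 or more arrays, so single arrays were not tested against the rest of their group.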

How the results depend on the processing

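Counts of member genes past the threshold are compared here. No call of a gene changed its direction under any of the alternatives run. The comparisons of control 48 h with 0 h, TSA 12 h with 0 h in TSA cells, TSA with control at 0 h and at 12 h, the F test, and the change from 12 to 36 h in vector and in Sir2 cells stayed within 1.5 times of their count in all alternatives. Only the groups compared, with fewer residual degrees of freedom, gave 0 for control 4 h against 0 h, 12 h against 4 h and 24 h against 12 h, 2 for control 24 h against 0 h, 18 for 48 h against 24 h, 0, 9 and 1 for TSA cells at 4, 24 and 48 h against 0 h, 1, 0 and 0 for TSA against control at 4, 24 and 48 h, and 2 and 3 for Sir2 at 12 and 36 h. For control 4 h against 0 h (1 gene) the count was 2 with double the pseudocount, no filter, the 60th percentile filter, trended variance or the suffix b. For control 12 h against 0 h (0 genes) it was 2 with double the pseudocount or trended variance, 1 with quantile normalization or no filter, and 3 with the 60th percentile filter. For control 12 h against 4 h (1 gene) it was 0 with a smaller pseudocount, quantile normalization, median centring or the replicate block, and 2 with the 60th percentile filter or trended variance. TSA against control at 24 h (1 gene) gave 2 with the 60th percentile filter and 0 with the mean of all probe sets of a gene. Sir2 at 12 h (11 genes) gave 3 with median centring, 4 with no filter and 18 with the 60th percentile filter, and Sir2 at 36 h (6 genes) gave 2 with no filter. Beyond the construction of the fits, the causes were not tested.

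With each array left out in turn, where a lone array is assumed to vary like the other groups, counts ranged from 0 to 0 for control 4 h, 12 h against 0 h and 12 h against 4 h, 4 to 8 for 24 h against 0 h, 35 to 37 for 48 h against 0 h, 4 to 6 for 24 h against 12 h, 31 to 34 for 48 h against 24 h, 4 to 16, 35 to 36, 23 to 33 and 3 to 6 for TSA cells at 4, 12, 24 and 48 h, 33 to 37, 11 to 16, 0 to 0, 0 to 1 and 21 to 26 for TSA against control at 0, 4, 12, 24 and 48 h, 33 to 37 for the F test, 1 to 9 and 1 to 4 for Sir2 at 12 and 36 h, 0 to 0 for their difference, and 35 to 36 and 35 to 37 for vector and Sir2 cells at 36 h.

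The labels share replicate numbers, but same-numbered arrays did not deviate together in all pairs. Correlations ran from -0.1 to 0.228 in the TSA arm and from -0.314 to 0.116 in the Sir2 arm. With 2 arrays per group, both arrays of a time in the TSA arm give the same correlation. These values cannot decide whether same-numbered arrays share a culture or batch, which the labels do not state. The replicate block gave 6 for control 24 h against 12 h (14 genes) and 0 for 12 h against 4 h, and moved no other count by over 1.5 times.

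Signal over background limits Aurkb, Racgap1, Kif11 and Kif23, which reach 0 or less on arrays at 48 h or with TSA. For Aurkb and Racgap1 this holds on both control arrays at 48 h.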
